A study of Bos taurus with 8 samples.

Results

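Of the 43653 non-control probes on a bovine expression array, 118 were well above background on all 8 arrays of cow blood neutrophils, and 115 of these are described here. The other 3, for S100A12, U2AF2 and a BOLA gene, belong to gene families left out by the selection rule (ribosomal proteins, S100 proteins, BOLA genes and splicing factor families). A probe counted as detected on an array when the extraction software called its spot well above background. The probes were chosen by these detection calls and ranked by their signal, so their levels are given as a description and are not tested. Of the 115 probes, 68 carry the symbol of a gene (67 genes, DYRK1B with 2 probes) and 47 have no symbol in the gene table used. Every one of them had 1 spot per array, and none was saturated.

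The RNA came from neutrophils isolated from jugular blood of female Holstein Friesian cows around calving. One group of 4 arrays holds samples drawn 14 days before the expected calving date, and the other group of 4 arrays holds samples drawn 7 days after the actual calving date, with no other treatment named. The series text speaks of 3 cows, so arrays within a time point cannot all come from different animals, and no label says which cow an array belongs to. P-values therefore measure the spread between arrays, which may be partly technical. Each time point was hybridised on its own slide and scan (2 slides, 0 with both times), so slide and time cannot be told apart. In bulk RNA, fewer cells of a type and less RNA per cell also cannot be told apart.

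Neutrophils are short-lived granulocytes that reach infected tissue first and kill microbes with granule proteins, oxidants and extracellular traps. Much of their granule cargo is made in the bone marrow, before the cells enter the blood. The transcripts that mature blood neutrophils are known to keep at high levels include chemokine receptors, S100 proteins, actin regulators and the machinery of translation.

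Detection differed widely between arrays. Between 0.893% and 10.3% of probes were well above background, with 390 probes on after-calving replicate 4, 780 on before-calving replicate 4 and 2225 to 4493 on the other 6 arrays. After-calving replicate 4 stands apart: across the 115 probes its signals had Spearman correlations between -0.08 and 0.24 with the other 7 arrays. Correlations between 0.51 and 0.75 tied replicate 4 of the earlier time point to the 6 brighter arrays. These 6 correlated among themselves at 0.50 to 0.92 (15 pairs, median 0.86). Before-calving replicate 2 had the lowest of these, 0.50 to 0.65, against 0.80 to 0.92 among the remaining 5. These correlations run across probes that share arrays and are given without a test. Results that rest on after-calving replicate 4 are given with and without it below.

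That array largely decided which probes are in the set. Of the 355 probes detected on 7 of the 8 arrays, 322 were missed only on after-calving replicate 4 and 24 only on before-calving replicate 4. Detection on the 7 arrays other than after-calving replicate 4 was met by 440 probes, 377 of them outside the left-out families. Of the 390 probes detected on after-calving replicate 4, 159 were detected on no other array and 30.3% on all the others. On that array the 115 probes had a median signal (background-subtracted intensity) of 47.0, and 50 of them lay under 2 times the lowest signal called detected there, which was 20.4. The dimmest of the 115 there was TPT1 at 20.6. The 262 probes outside the families that only this array missed had a median signal of 2.34 on it.

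**Figure D1:**
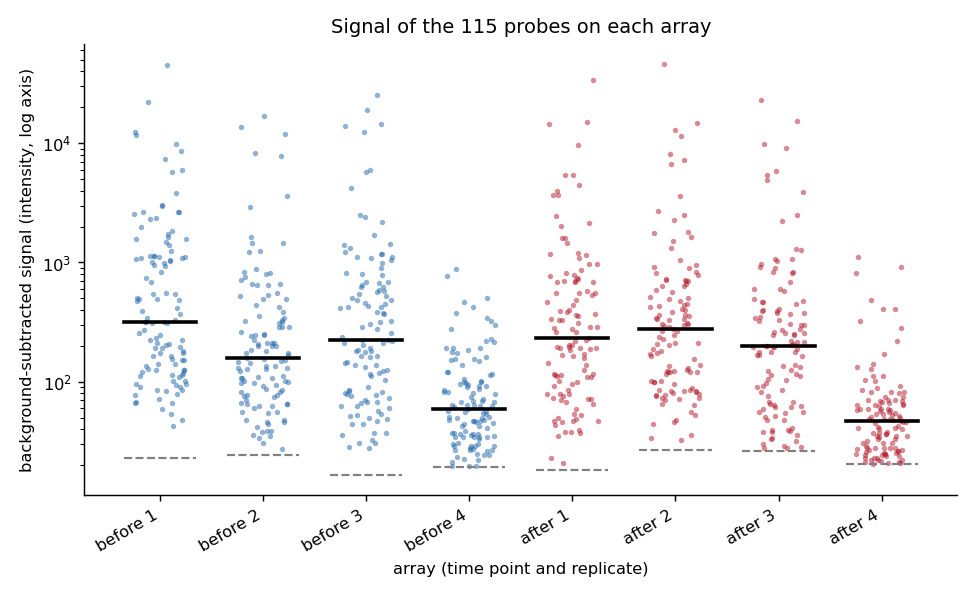
Background-subtracted signal (log axis) of the 115 probes on each of the 8 arrays, blue before and red after calving, with the median as a black line and the lowest signal called detected on that array as a dashed grey line. The medians run from 47.0 on after-calving replicate 4 and 58.9 on before-calving replicate 4 to 319 on before-calving replicate 1, and on both replicate 4 arrays many points sit close to the dashed line.

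The set lies in the brighter part of the array without being its brightest probes. Of the 115 probes with the highest median signal over the 8 arrays, 16 belong to the set (13.9%), and the places of its members among all probes run from 1 to 1315 with a median of 395. Between its brightest and its dimmest array a member differed by a median of 9.65-fold (2.60-fold to 922-fold). Over the 6 brighter arrays alone the median was still 4.20-fold (1.34-fold to 377-fold), beside 4.27-fold for the 914 probes outside the families that were detected on these 6 arrays and are not in the set. These folds carry the difference in brightness between arrays. After the 6 arrays were brought to a shared 75th percentile of the probes detected on each of them, the medians were 4.47-fold for the set and 3.004-fold for the 914. The rule asks for detection on all arrays, so brightness is part of the choice. The set was no more constant than those probes, and less constant by the scaled folds. It is called here by its rule, the probes detected on all arrays.

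The brightest probes were ranked by their mean signal in each time point. Such a rank orders probe signals and not transcript amounts, because probes differ in how well they hybridise. Among named genes CAMK1G, which codes for a calmodulin-dependent kinase known from the brain, came first at both times. Its signals were 22182, 11851, 12480 and 877 before calving (replicates 1 to 4, an order kept below) and 14327, 14606, 9879 and 101 after (means 11847 ± 8709 and 9728 ± 6773, SD, n = 4). Both replicate 4 arrays were far below the others, and the ranges of the times overlapped.

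TPT1, the translationally controlled tumour protein and an abundant transcript of most cells, gave 11604, 13638, 18990 and 427 before calving and 3950, 6622, 5799 and 20.6 after (means 11165 ± 7807 and 4098 ± 2939, SD, n = 4). It ranked 3 of 115 before and 7 after calving. TMSB10, an actin-binding thymosin, gave 12468, 7864, 14439 and 463 before calving and 4474, 8164, 15228 and 25.1 after. It ranked 4 at both times, and here too the time points overlapped. KLF13, a Krueppel-like transcription factor, gave 9858, 264, 14028 and 302 before calving and 14915, 11390, 9049 and 58.2 after, with before-calving replicates 2 and 4 both far below replicates 1 and 3.

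The single brightest probe of the set, A_73_113343, has no symbol and was first at both times, with means of 21975 ± 18557 before and 25644 ± 19220 after calving (SD, n = 4). It is named although it falls outside the rule for named genes, and was chosen after its values were seen. Of the 20 probes ranked highest before calving, 12 have a symbol.

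Among the 12 named genes in the 20 highest ranks before calving, 6 are known mainly from tissues other than blood, CAMK1G and 5 more. Genes outside the set were not sorted in this way, so this share has no comparison. GPR37L1, an orphan receptor of glial cells, gave 3854, 2902, 1314 and 95.3 before calving and 3695, 1627, 1291 and 111 after. AVP, which codes for the hypothalamic hormone vasopressin, gave 2323, 129, 1393 and 176 before calving and 1607, 1508, 2244 and 42.7 after. GAL, the neuropeptide galanin, gave 2647, 653, 1099 and 162 before calving and 1155, 790, 398 and 36.4 after. In each of the 3, after-calving replicate 4 or before-calving replicate 4 was the dimmest array, and the 2 time points overlapped.

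F7, which codes for coagulation factor VII of the liver, gave 1558, 828, 2390 and 68.1 before calving and 690, 913, 840 and 22.3 after. NOVA1, a neuronal splicing regulator, gave 2633, 86.7, 1700 and 64.1 before calving and 977, 2254, 1274 and 42.1 after. SPATA2L had means of 3279 before and 1522 after calving, TRAFD1, a feedback regulator of innate immune signalling, of 1417 and 730, and RUVBL2, an ATPase of chromatin remodelling complexes, of 1028 and 726. HDAC10, a histone deacetylase family member, was at 894 and 400, and PMEPA1, a membrane protein that dampens TGF-beta signalling, at 791 and 772. The means of HDAC10 and RUVBL2 include a spot on before-calving replicate 1 that the software marked as an outlier. ZNF592 entered the 15 brightest named genes only after calving, with means of 526 before and 753 after.

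**Figure D2:**
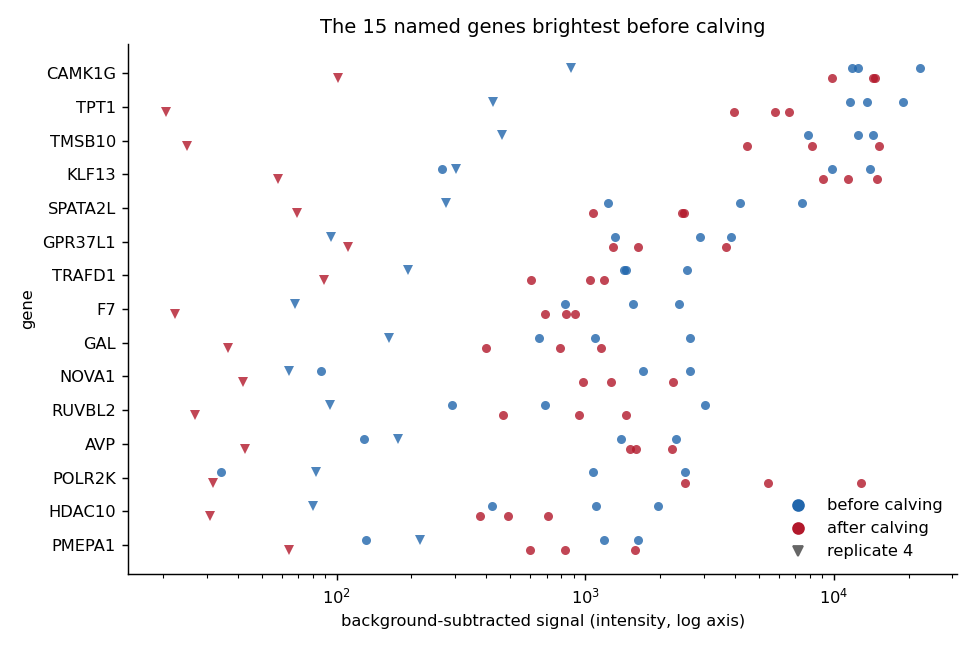
Background-subtracted signal (log axis) on each array for the 15 named genes with the highest mean before calving, blue before and red after, with the replicate 4 arrays as triangles. CAMK1G spans 101 to 22182 and TPT1 20.6 to 18990, and the triangles lie at the low end of nearly every row.

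The named genes of the set were sorted by what they are known for, after the list was seen and without a test. Genes outside the set were not sorted, so the shares that follow cannot be compared with those of the array. Of the 67 named genes, 19 (28.4%) are known mainly from tissues other than blood. The nervous system is represented by 8 of them, among them CELSR3, a neuronal cadherin receptor, SLC17A7, a vesicular glutamate transporter, and SSPO, the secreted glycoprotein SCO-spondin. Another 2, CABP2 and GNB3, belong to photoreceptor or hair cells. The remaining 9 belong to liver, epithelium, muscle or gland, such as MYO1A of the intestinal brush border, the keratin KRT19, the inhibin chain INHBC, ABCC8 of pancreatic beta cells and NRAP of striated muscle. Widely expressed genes made up 29, and 15 were not sorted. Leukocyte genes made up 4, namely CD4, the co-receptor of helper T cells, PTPN7, a tyrosine phosphatase of blood cells, CEBPA, a transcription factor of granulocyte development, and ZC3H12A, an RNase that degrades inflammatory transcripts.

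Of 15 lists of translation, cytoskeleton, metabolism, granule, leukocyte and other genes, 5 genes were in the set. They make up 7.46% of its 67 named genes, while list genes are 3.69% of the 12639 named genes of the array and 15.9% of the 718 named genes detected on all 6 brighter arrays. Of the 114 list genes detected on these 6 arrays 4.39% were in the set, beside 9.33% of all 718. Among the 5 are TPT1 of the translation list (13 of its 44 genes on the array were detected on the 6 arrays), TMSB10 of the actin list (11 of 46) and KLF13 and SREBF2 of the transcription factor list (11 of 36). No member came from the lists of mitochondrial respiration (16 of 38 on the 6 arrays), glycolysis, chaperones, granule proteins (3 of 33), leukocyte receptors (17 of 58) or common qPCR reference genes (9 of 33). The lists do not hold every gene of their kind. NDUFA3 and COX6B2, genes of respiratory chain subunits, and the receptor gene CD4 are in the set but on none of the 15 lists. SREBF2, a regulator of sterol synthesis, had means of 313 before and 285 after calving. No ribosomal protein probe was among the 118, although 69 of the 1111 probes detected on the 6 brighter arrays, and 52 of the 355 detected on exactly 7 arrays, were of this family.

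The marker genes of the labelled cell type were also outside the set. Of 12 neutrophil markers 10 were on the array under these symbols, 7 were detected on at least 1 array, and 2 on all 6 brighter arrays, the chemokine receptor gene CXCR1 and S100A12. S100A12 was the single one detected on all 8 and belongs to a left-out family. CXCR1 was at 325, 332, 458 and 15.1 before calving and at 75.0, 98.6, 112 and 0.221 after. CD177, ITGAM and S100A8 were detected on no array. Of the markers of other cell types 1 is in the set, CD4. Detection on the 6 brighter arrays was met by 2 of 10 T cell, 2 of 6 monocyte, 1 of 5 B cell, 1 of 2 eosinophil, 1 of 7 erythroid and 0 of 8 natural killer, 4 basophil and 3 platelet markers. What part other cells have in these signals was not tested.

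Probes just outside the set had signals in much the same range. The 295 probes outside the families that were detected on 7 arrays had a median signal over the 8 arrays of 251 (quartiles 99.8 and 591), and the 115 members one of 213 (quartiles 82.2 and 486). Outside the left-out families and the genes already in the set, the 5 genes with the highest median signal among probes detected on 7 arrays were IFITM2, an interferon-induced membrane protein, TKT, the pentose phosphate enzyme transketolase, LOC282255, IL1RL1, the receptor of interleukin-33, and ACTB, beta-actin. IFITM2 gave 8270, 9884, 6519 and 274 before calving and 2100, 3813, 6316 and 13.9 after. TKT gave 4120, 5046, 7937 and 134 before calving and 3171, 5392, 4639 and 4.08 after. ACTB gave 1881, 28.8, 8993 and 59.8 before calving and 4172, 5528, 5133 and 9.74 after. All 5 were missed on after-calving replicate 4 alone. With the families counted, BOLA, RPS3 and RPL13A came among the first 5, also missed there alone. At the dim end of the set, ACAD11, HYAL2, SSPO, GNB3 and GJB1 had the lowest means, ACAD11, an acyl-CoA dehydrogenase, with 42.4, 60.3, 32.8 and 24.5 before calving and 35.5, 48.3, 41.2 and 63.6 after.

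The other probes of the same genes give a further view, though not an independent one. By the rule, any probe of these genes detected on all 8 arrays is itself a member, so the other probes are those that missed at least 1 array. Of the 67 named genes, 53 have at least 1 other probe on the array, 109 such probes in all. Of these 109, 89 (81.7%) were well above background on no array, and in 39 of the 53 genes (73.6%) every other probe was dark in this sense. The same held for 55.3% of 152 genes with a probe detected on 7 arrays (outside the families and the set), and for 61.6% of 518 genes with a probe detected on 6 or 7 arrays. These shares are a description. AVP, NOVA1, SPATA2L, TRAFD1, PMEPA1 and POLR2K are among the 39. For CD4, all 3 other probes were detected on no array, the highest of their signals being 6.87, against 1098 on the member probe. CEBPA had 1 other probe, also detected on no array.

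DYRK1B alone has 2 probes in the set. In 5 other genes another probe was detected on 6 or 7 arrays, but only the member probe was detected on all 8. These are TPT1, with a second probe on 7 arrays at a median signal of 3305, TMSB10 with 3 further probes on 6, 7 and 7 arrays (medians 698, 813 and 2409), KLF13, SREBF2 and PTPN7. Of these, 4 are on the gene lists and PTPN7 is a blood cell gene. For KLF13 the 2 other probes were much dimmer than the member probe, with medians of 41.0 and 60.2 against 9453. TPT1 also had 3 further probes on 0, 0 and 1 arrays, so a dark probe of a gene does not show that its transcript was missing. For CAMK1G, GAL, GPR37L1, F7, CELSR3 and 9 more genes the array holds no other probe under the same symbol, and nothing of this kind can be said.

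**Figure D3:**
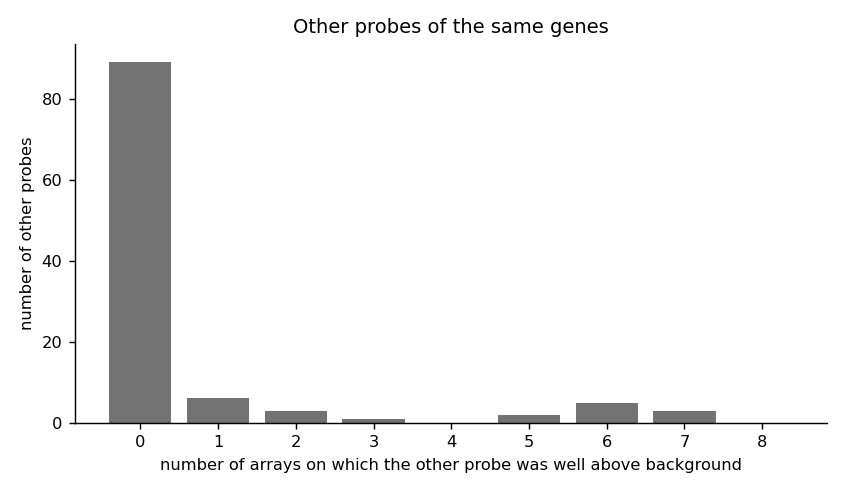
Number of arrays (of 8) on which each of the 109 other probes of the 53 genes was well above background. Of these probes 89 stand at 0 arrays and 8 at 6 or 7, and the rule leaves none at 8.

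By mean background-subtracted signal the order of the probes was much alike at the 2 times. The dim replicate 4 arrays add little to the means of the brighter probes, so leaving 1 out is a weak check. Over the 115 probes the Spearman correlation of the mean signal before and after calving was 0.90, and 0.91 without after-calving replicate 4 (a description across probes that share arrays and probe chemistry, with no test). Of the 15 named genes brightest before calving, 14 were among the 15 brightest after. With the processed signal, which on before-calving replicate 3 includes a surface correction, the correlation was 0.46. The 5 named genes whose rank moved most were INHBC (72 before, 32 after), MOB3A, a kinase adaptor (110 and 71), NRAP (88 and 59), CD4 (33 and 61) and CYTH2, an exchange factor for ARF GTPases (89 and 115).

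INHBC gave 224, 210, 117 and 24.4 before calving and 581, 85.3, 976 and 69.4 after, and MOB3A gave 66.4, 85.7, 27.8 and 46.7 before calving and 143, 175, 214 and 33.0 after. In INHBC 2 arrays after calving were high and 2 low, and in MOB3A replicate 4 was the low one, so that the times overlapped in both. CD4 gave 1098, 82.7, 898 and 139 before calving and 218, 337, 200 and 25.1 after. Here before-calving replicates 1 and 3 were high, and the other 2 lay below 3 of the arrays after calving.

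**Figure D4:**
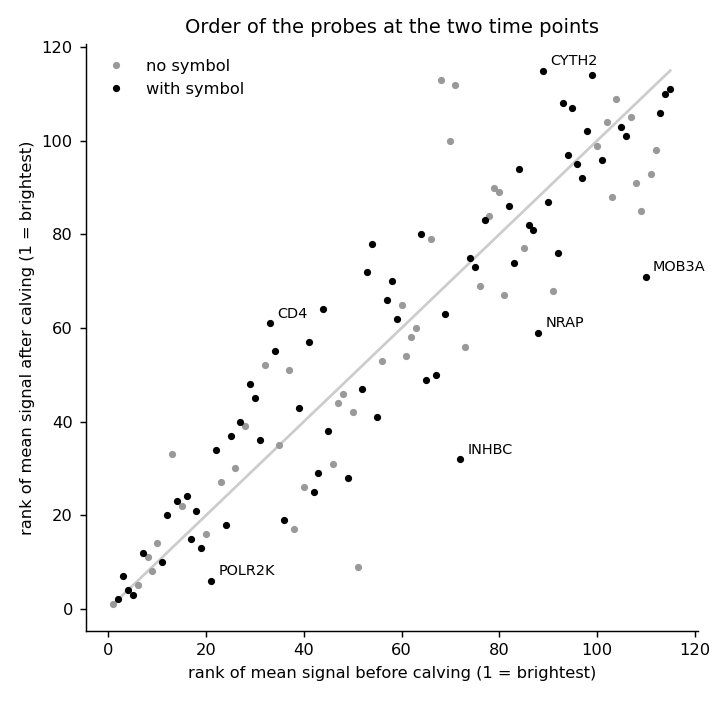
Rank of each of the 115 probes by mean signal before (horizontal axis) and after calving (vertical axis), black with and grey without a gene symbol, with equal ranks on the grey line. Most probes lie near the line (Spearman correlation 0.90), and INHBC, MOB3A, NRAP, CD4, CYTH2 and POLR2K are labelled away from it.

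Whether the probes differed between the times was tested for all 118 probes together, after each array was scaled by its 75th percentile over them, on the log2 scale. With limma no probe passed an adjusted p of 0.05 on the 8 arrays (0 of 118, or 0.00%, and 0 of the 115). Before adjustment 2 probes (1.69%) had a p under 0.05, both of the 115 and both without a symbol. Without after-calving replicate 4 limma called 2 probes (1.69%), both members and both higher after calving. Before adjustment 10 of 118 (8.47%), 9 of them members, had a p under 0.05 in that fit. The smallest adjusted p over the 8 arrays was 0.938. The median difference of the members, after minus before, was 0.23, beside 0.21 for all 118 probes. Of the 115, 70 values were positive and 45 negative, but without after-calving replicate 4 the split was 47 and 68 with a median of -0.24, so no general direction can be given. The standard errors ran from 0.49 to 1.27 with a median of 0.73, and the median 95% interval reached 1.60 to either side. These intervals are not adjusted for the number of probes, and differences as large as 2.70 and 2.80 did not pass the adjusted threshold. Changes of the size of the interval, and larger ones, could thus go uncalled.

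POLR2K, a small subunit shared by the RNA polymerases, had the largest difference of the named genes, at 2.70 (SE 1.27, 95% interval -0.09 to 5.49, adjusted p by limma 0.938). Its signals were 1078, 34.2, 2519 and 82.7 before calving and 5441, 12877, 2520 and 31.9 after. The arrays after calving were at or above the highest array before calving, apart from replicate 4, which was the lowest of all 8. Without that array POLR2K rose by 3.78 (SE 0.91, adjusted p by limma 0.0300). Fitted over the 440 probes detected on the 7 arrays the difference was 4.08 and the call was lost (adjusted p by limma 0.173), as it was with both replicate 4 arrays left out (3.82, adjusted p by limma 0.399). Its 2 other probes were detected on no array.

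The probe A_73_P093286, which has no symbol and was named after its values were seen, had a difference of 2.80 (SE 1.04). It gave 543, 36.2, 692 and 30.0 before calving and 1210, 2688, 4888 and 25.1 after. Without after-calving replicate 4 it rose by 3.69 (SE 0.78, adjusted p by limma 0.0168), and over the 440 probes the difference was 3.99 (adjusted p by limma 0.0829). With both replicate 4 arrays left out it was 3.59 (adjusted p by limma 0.399). In the 7-array fit over the 440 probes, 4 passed (0.909%), none of them among the 115. For both probes before-calving replicates 2 and 4 were far below replicates 1 and 3.

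Among named genes the next largest values were -1.85 for TPT1 (SE 1.15, -0.63 without after-calving replicate 4), 1.48 for INHBC (SE 0.82), 1.46 for MOB3A (SE 0.77) and -1.46 for CELSR3 (SE 0.68, fitted on 7 arrays because its spot on after-calving replicate 1 was marked as an outlier by the software). None passed the threshold. TMSB10 was at -1.07 (SE 1.19) and at 0.24 without after-calving replicate 4, and CAMK1G at -0.63 (SE 0.90) and 0.34 without it, so their sign turned with that array. KLF13 was at 1.07 (SE 1.24) and at 2.20 without after-calving replicate 4 (adjusted p by limma 0.390). CD4 was at -0.92 (SE 0.68, -0.87 without that array) and SREBF2 at 0.45 (SE 0.56, 0.25 without that array). The smallest differences were those of GNB3, GJB1, SPINT2, a protease inhibitor, SLC17A7 and TMX4, between -0.10 and 0.01. Their intervals were wide, for GNB3 from -1.89 to 1.88, so these values do not show that the levels stayed alike.

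The time points did not overlap, as scaled signal, in 1 of the 118 probes higher after calving (0.847%) and in 2 lower after calving (1.69%), all 3 among the 115. Without after-calving replicate 4 the counts were 6 higher (5.08%, 5 of them members) and 7 lower (5.93%, all members). Of the 3 on 8 arrays TRAFD1 has a symbol. It gave 2570, 1465, 1438 and 193 before calving and 1187, 1043, 603 and 89.0 after, a difference of -0.68 on the scaled log2 scale (SE 0.51, adjusted p by limma 0.938), which was 0.08 with the processed signal and 0.42 with the authors' deposited matrix. Each of its scaled values after calving lay below each of those before, while the unscaled signals overlap because before-calving replicate 4 was dim. TRAFD1 also had the smallest spread within time points of the named genes (SD 0.34 on the scaled log2 scale), followed by AJUBA, a LIM domain scaffold (0.34), MYO1A (0.45), CRELD1 (0.50) and MGC137211 (0.53). The largest spreads were those of POLR2K (2.29), KLF13 (2.22), TMSB10 (2.12), TPT1 (2.04) and GJB1 (1.71), against a median of 1.08 over the 115 probes.

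**Figure D5:**
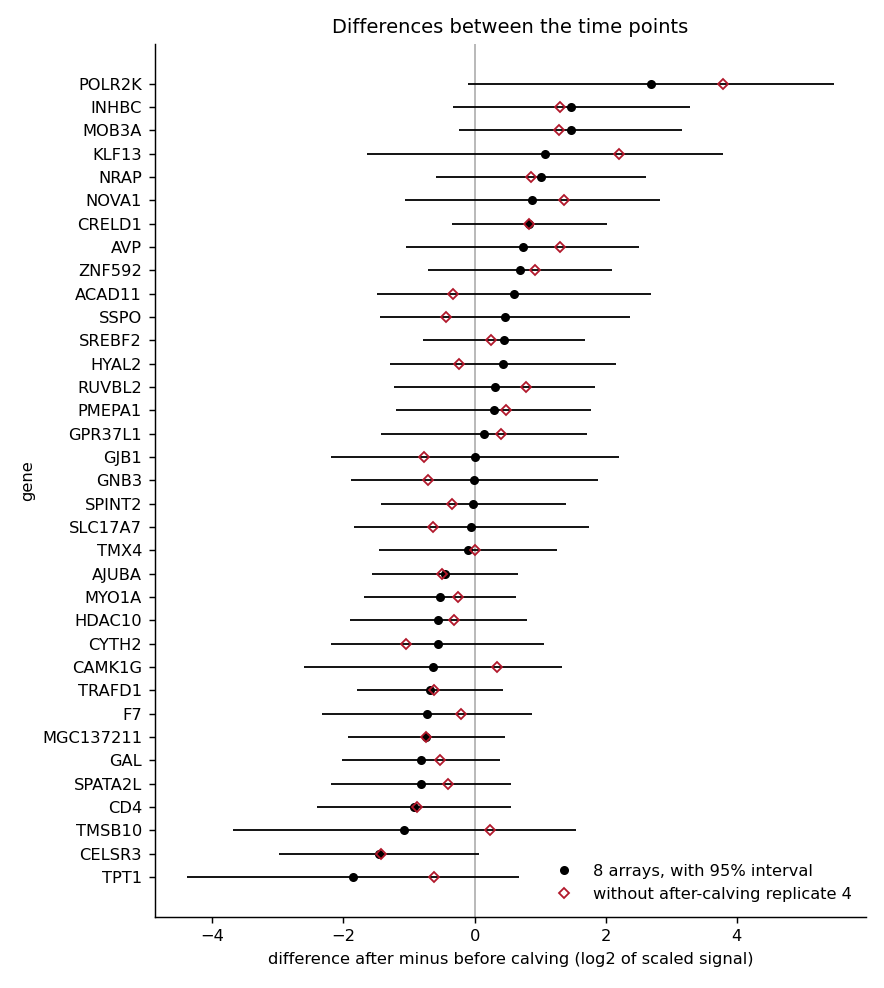
Difference after minus before calving (log2 of scaled signal) for the named genes of the set, with black points and 95% intervals from limma on 8 arrays (7 for CELSR3, HDAC10 and RUVBL2) and open red diamonds for the fit without after-calving replicate 4. The intervals of all genes shown include 0 on 8 arrays. Among the diamonds that lie far from their points are those of TPT1, TMSB10, KLF13, POLR2K and CAMK1G.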

How the data were processed

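Single-colour (Cy3) Agilent arrays of 8 samples were analysed from the deposited scanner files, whose intensity values the authors obtained with Agilent Feature Extraction (version 9.1 per the submitters' processing notes, 10.10.1.1 per the file headers, which name protocol GE1_1010_Sep10 and UMD_3.1). The deposited series matrix holds log2 values. Its rows, taken in the order in which probe names first appear in the scanner files, correlated at 0.999 or more with log2 processed intensity less each array's 75th percentile and each probe's median. The scaling and the centring of probes were inferred from that correlation. Its column medians lay between -0.128 and 0.0289, but at -2.61 on before-calving replicate 3.

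Detection was the software's well-above-background call on over 0.5 of a probe's spots. Levels are background-subtracted intensities, used in place of the processed ones because on before-calving replicate 3 the latter include a surface correction (root mean square 1.83, 0 on the others). Symbols came from a RefSeq gene table (assembly ARS-UCD2.0, names only), which named 26832 of 43653 probes. The fit used limma 3.58.1 in R 4.3.3 (lmFit, eBayes, two-sided, Benjamini-Hochberg, threshold 0.05) over the 118 probes detected on all arrays, with the 3 spots of members flagged as outliers set as missing. It was tested on simulated data whose noise was smaller than that of the arrays, so that test says nothing of the power here. The number of arrays limits the precision. No cow term could be fitted.

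The probes, the lists and the rule for named genes were chosen with earlier results of these data known. The rule takes the 15 brightest named genes at each time and the 5 dimmest, the 5 largest and 5 smallest in time difference and in spread, the 5 largest rank shifts, members of the 15 gene lists or 9 marker lists, and the 5 brightest genes detected on 7 arrays. Alternatives were other signals, normalizations, filters, weights and arrays left out. The planned normexp alternative used the median spot signal. Sequences of probes or genes were not used here. The values of 1 member gene are not reported here.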

Additional observations from a re-analysis of the deposited data

Results flagged for a closer look

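Within each time point the 4 arrays were examined for 1 array far from the other 3, in 76 groups of values, of which 9 met the criterion. By chance about 1 in 20 groups meet it when groups are independent and not picked by their values. Most groups here are genes named by their values on these same arrays, so that rate does not apply. The surface correction after calving was 0 on every array and could not meet the criterion. As scaled log2 signal, before-calving replicate 2 lay low for AVP (-1.68, others 0.65 to 1.04), CD4 (-2.32, others -0.04 to 0.39) and PMEPA1 (-1.66, others 0.53 to 0.96). After-calving replicate 4 lay low for CAMK1G (0.54, others 4.35 to 4.48) and KLF13 (-0.25, others 4.12 to 4.40). It lay high for SLC17A7 (-0.61, others -3.20 to -2.81) and SSPO (-0.13, others -3.94 to -3.36). Unscaled, neither was the highest of its group, with SLC17A7 at 45.5 (others 61.6 to 100) and SSPO at 63.4 (others 30.1 to 63.9). The log2 75th percentile subtracted on that array was 6.12, against 8.85 to 9.46 on the others after calving. These scaled values thus do not show a raised signal. After-calving replicate 1 was high for CELSR3 (0.62, others -1.60 to -1.50), on the spot that the software had marked as an outlier. The surface correction of before-calving replicate 3 had a root mean square of 1.83, against 0 on the other 3 arrays of its group.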

How the results depend on the processing

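With limma the count of 0 of 118 probes called between the times was unchanged under the other signals, scalings, filter, variance model, weights and fits, and ran from 0 to 2 with each array left out, the 2 being the count without after-calving replicate 4 (0 to 2 of the 115 members). The 7 arrays without it, fitted over their own 440 probes, a choice made after seeing the data, called 4 probes and no member. At an unadjusted p under 0.05 there were 2 probes on 8 arrays. The median difference of the members ranged from -0.24 to 0.40 with each array left out, and was negative with median scaling (-0.04), scaling over all probes (-0.07) and both replicate 4 arrays left out (-0.10). It was 0.42 with normexp and 0.55 with the deposited matrix. The number of members was 730 with the software's weaker call of a positive and significant signal, 1029 without both replicate 4 arrays, and 115 to 377 with each array left out. The rank correlation between the times was 0.464 with the processed signal and 0.862 to 0.914 with each array left out. Of the 36 named genes 14 kept the sign of their difference under all 21 alternatives, TPT1, KLF13, POLR2K, SREBF2 and CD4 among them. Of these alternatives, the other variance model and a block for replicate number cannot turn the sign of a gene without a missing spot. The cause of the shifts given above was not tested.

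The deviations of same-numbered arrays correlated at 0.70, -0.41, 0.49 and 0.68, so not every pair deviated together, and no label ties a number to a cow. Whether the numbers pair some arrays cannot be told. With the replicate block 0 probes were called and the median difference of the members was 0.20. With equal groups a block leaves the difference of a probe without a missing spot unchanged. It is therefore no check of that median. Signals near the lowest detected one on both replicate 4 arrays limit what these arrays can show.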

Other observations

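The names of the probes on this array come in 2 forms, with and without the letter P in front of the number. Of all 43653 probes 33.3% have the form without P, of the 115 probes detected on all arrays 59.1%, and of the 993 other probes detected on the 6 brighter arrays 45.3%. By the number of arrays on which a probe was detected, the share was 32.0% at 0 arrays, 48.7% at 6, 38.3% at 7 and 59.3% at 8. Among the member probes whose gene has another probe, all those other probes were detected on no array for 31 of 35 probes named without P and for 8 of 19 named with P. These shares are a description, and what sets the forms of name apart is not stated in the sources used here.

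On after-calving replicate 4 the 3 brightest members, A_73_P100256 at 1109, A_73_P504783 at 910 and A_73_P100346 at 816, are probes for the same transcript, which has no symbol in the table used. On the other 7 arrays their median signals were 405, 771 and 326. Of the 115 probes, 16 were brighter on that array than their median over the other 7, and 65 were dimmer on it than on each of the others. The 5 probes named in these paragraphs and in the report by their probe name were chosen after their values were seen.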
